A study of Homo sapiens with 12 samples.

Results

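The genes of the G1/S transition and of DNA replication were followed in K562, a cell line grown from a chronic myeloid leukaemia. The set comes from a fixed list of 48 gene symbols. A symbol's locus was taken from the gene names of the expression table, and where several loci carried it, the locus with the highest mean level was used. Of the 48 symbols, 47 were measured, among 38272 loci in all, and MCM7 is not analysed here. A single gene name stood on 42 of these loci. The other 5 share their locus with another gene: PRIM1 with NACA, FEN1 with FADS2, POLD1 with SPIB, CHAF1B with MORC3, and POLD3 with a gene known by a clone name, so their values cannot be split between the genes named.

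Every group was K562 cells transfected with an siRNA and a GapmeR, an antisense oligonucleotide that directs RNA cleavage, and RNA was sequenced in 3 libraries per group, labelled as biological replicates. In TNFSG both reagents were aimed at a long non-coding RNA (lncRNA) and TNF, an inflammatory cytokine, was added at 20 ng/mL for 6 hours. TNF cells had the control siRNA and GapmeR and the same TNF treatment. SG cells had the 2 lncRNA reagents without TNF, and control cells had the control reagents without TNF. The labels do not say whether separate cultures were grown for each replicate, so the p-values measure the spread between these libraries. The 4 groups ask what TNF does to gene expression, what the lncRNA reagents do, and whether either depends on the other.

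Before S phase, the origin recognition complex, CDC6 and CDT1 load the MCM2-7 helicase onto DNA, and geminin (GMNN) restrains CDT1 once replication has begun. CDC45 and the GINS complex then turn the loaded helicase on, RPA coats the single strands, DNA polymerase alpha with its primase lays primers, and replication factor C loads the sliding clamp PCNA for polymerases delta and epsilon. E2F transcription factors and cyclin E drive entry into S phase and many of these genes are E2F targets, so their RNA is often read as a sign of proliferation. K562 cells divide continuously, and these transcripts are abundant in them.

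Expression was given as FPKM, fragments per unit of transcript length and of library size, so levels can be set side by side between genes. Over the 12 libraries the members' means ran from 7.97 FPKM for CCNE2 to 241 FPKM for PCNA, with the shared PRIM1 and NACA locus at 332 FPKM. Among licensing factors the means ran from 23.9 FPKM for CDC6 to 119.6 FPKM for GMNN. The MCM subunits lay between 63.2 FPKM for MCM5 and 149.8 FPKM for MCM3. Among the helicase activators GINS1, a GINS subunit, averaged 13.7 FPKM and CDC45 195 FPKM. The clamp PCNA stood far above its loaders, of which RFC1, the large subunit, was lowest at 28.0 FPKM. POLA1, the catalytic subunit of polymerase alpha, averaged 12.4 FPKM. In nucleotide supply the range was from RRM2, the regulated subunit of ribonucleotide reductase, at 56.1 FPKM to TYMS, which makes thymidylate, at 170.0 FPKM. Each member's highest library was at most 1.89 times its lowest, with a median ratio of 1.38.

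**Figure D1:**
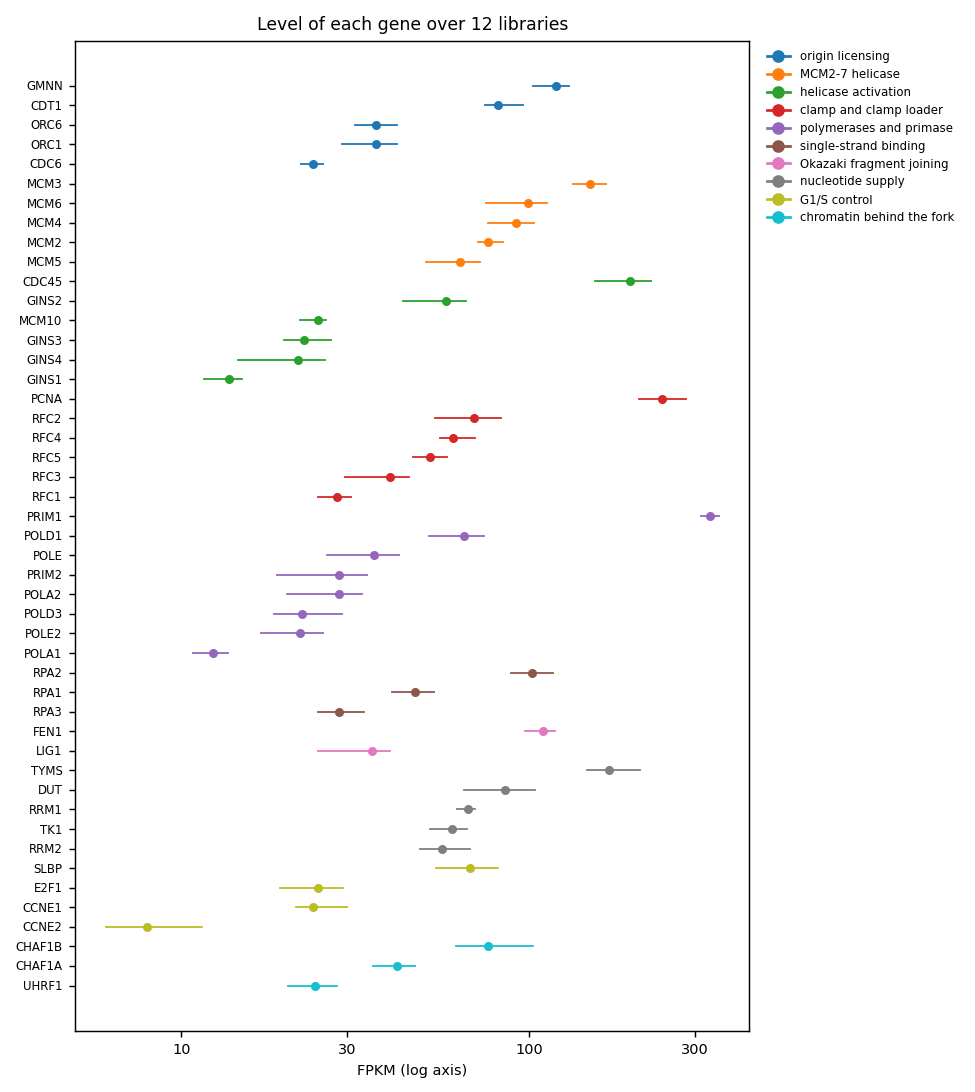
Level of each of the 47 genes, grouped by role, on a log axis of FPKM; the point is the mean of the 12 libraries and the line runs from the lowest to the highest library. CCNE2 lies lowest at 7.97 FPKM and the PRIM1 locus, which also carries NACA, highest at 332 FPKM; most lines are short beside the distance between genes.

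The libraries were alike in total, with FPKM sums of 925955 to 1083476, of which the members made up 0.303% to 0.346%. All 10 K562 marker genes checked, erythroid globins and transcription factors among them, had a mean over the 12 libraries of 1 FPKM or more, on 9 loci, since HBG2 and HBE1 share one. The globin gene HBG1 was the lowest, down to 0.481 FPKM in SG replicate 2. Each of the 5 TNF response genes checked (ICAM1, NFKBIA, CXCL8, TNFAIP3 and CD83) rose in TNF against control and in TNFSG against SG by limma's test. The labels name the lncRNA only through reagent codes and the title. The locus named MIR146A, whose identity with the target was not tested, had 7.77, 4.51 and 4.03 FPKM in TNFSG and 28.1, 25.6 and 21.2 FPKM in TNF, against 0, 0.0566 and 0.0630 FPKM in SG and 0.360, 0.569 and 0.159 FPKM in control.

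The first replicate of TNF and of control stood apart for these genes. Of the 47 members, 35 (74.5%) had their lowest TNF value in TNF replicate 1, where 39% of all tested loci did. In control, 33 (70.2%) had their lowest value in replicate 1, against 38% of all tested loci. The median member lay 0.15 below the mean of the other TNF libraries in TNF replicate 1 and 0.11 below in control replicate 1, on the log2 scale, and 30 members were lowest in both. The first replicate was lowest for 28 members (59.6%) in TNFSG, against 35.4% of all loci, and for 25 (53.2%) in SG, against 36.8%. The 4 lowest ratios in control were those of GINS4, PRIM2, POLE and LIG1. GINS4 in control replicate 1 was at 0.596 of the mean of control replicates 2 and 3, PRIM2, the large primase subunit, at 0.608, POLE, the catalytic subunit of polymerase epsilon, at 0.688 and LIG1, which seals Okazaki fragments, at 0.690. Genes of other roles were low too, E2F1 at 0.749 and TYMS at 0.796, while the helicase and fork genes MCM4 and RFC4 were at 1.05 and 1.11. GINS4 had 17.1, 22.4 and 22.4 FPKM in TNF and 14.6, 23.0 and 25.8 FPKM in control, and PRIM2 21.7, 23.1 and 29.8 FPKM in TNF and 18.9, 29.6 and 32.4 FPKM in control. In the lncRNA reagent groups the same genes were closer together, with GINS4 at 20.2 to 24.2 FPKM in TNFSG and 21.2 to 23.7 FPKM in SG. CHAF1B, a subunit of chromatin assembly factor 1, went the other way, at 1.39 in TNF and 1.24 in control. Marker genes were uneven over the libraries too. The summed level of the K562 markers ran over 2082 to 4109 FPKM in TNFSG, 2191 to 5026 in TNF, 2304 to 4424 in SG and 2314 to 5297 in control. The embryonic globin HBZ was at 268, 473 and 791 FPKM in TNFSG, 308, 819 and 1187 in TNF, 299, 483 and 758 in SG and 295, 842 and 1160 in control, so that replicate 1 held the lowest value of every group. In the average over both transfections the erythroid transcription factor genes NFE2 and KLF1 fell with TNF, by 1.07 (limma adjusted p = 0.000170) and 0.62 (limma adjusted p = 0.00912). Of 5 monocyte markers 3 had a locus, with sums of 425 to 511 FPKM in TNFSG, 587 to 949 in TNF, 31.7 to 689 in SG and 281 to 489 in control. Most of that was the CD163 locus, shared with CD163L1, which was at 8.86 FPKM in SG replicate 2, against 595 and 672 in the other SG libraries. Of 5 endothelial markers 1 had a locus, KDR, which was at 16.5 FPKM in TNF replicate 1 and 9.82 in control replicate 1, against 3.49 in TNFSG replicate 1, 5.07 in SG replicate 2 and 0 in the other libraries. Of 6 fibroblast markers 3 had a locus, and their summed level ran over 65.2 to 444 FPKM in TNFSG, 55.1 to 1178 in TNF, 21.4 to 45.3 in SG and 23.9 to 56.3 in control. Among them COL1A2, a collagen gene, was at 1098 FPKM in TNF replicate 1, 406 in TNFSG replicate 2 and 127 in TNF replicate 2, against 0 to 6.39 elsewhere. The part of these in the results was not tested, so calls are given with and without these first replicates where they differ.

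**Figure D2:**
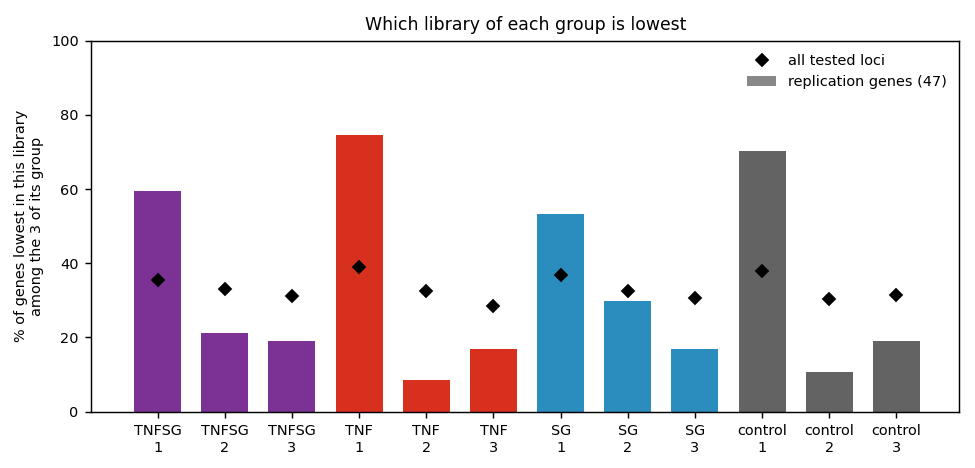
For each library, the percentage of genes whose lowest value among the 3 libraries of the group fell in it; bars are the 47 replication genes and diamonds all tested loci. TNF replicate 1 (74.5%) and control replicate 1 (70.2%) are the highest bars, each far above its diamond.

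In cells with the control reagents, TNF raised 1 member, RFC2, and lowered none at an adjusted p under 0.05. That is 1 of 47, where 1.45% of all tested loci were called (1.18% higher), and 2.82% of the loci at least as abundant as the lowest member. RFC2 encodes a small subunit of replication factor C, the ring that opens PCNA and sets it on DNA. It had 72.5, 77.3 and 70.6 FPKM in TNF, against 53.5, 57.9 and 57.3 FPKM in control. Every TNF library lay above every control library, and RFC2 rose by 0.38 ± 0.06 on the log2(FPKM + 1) scale (limma, adjusted p = 0.0101; ± is the standard error throughout for changes). In TNFSG it had 82.4, 82.8 and 81.3 FPKM, against 62.3, 65.9 and 66.5 FPKM in SG. Again there was no overlap, and the rise of 0.34 ± 0.06 was called (limma adjusted p = 0.0187), the only member called of 47 there, where 1.64% of all tested loci were (1.37% higher). The call in TNF against control was kept in each of 6 refits that each dropped 1 library, but was lost without both first replicates (limma adjusted p = 0.0567), without a trend in the variance (limma adjusted p = 0.0916) and with a fit of only those 2 groups (limma adjusted p = 0.127). In TNFSG against SG each of the 6 refits lost it, at limma adjusted p-values between 0.0556 and 0.0820. These are bulk RNA samples, in which a change in the share of cells in S phase and a change of RNA per cell cannot be told apart.

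The other subunits of the same complex had no call. RFC1, the large subunit, had 24.9, 27.2 and 28.2 FPKM in TNF against 28.0, 29.5 and 29.2 FPKM in control, with a log2 change of -0.11 ± 0.08 (limma adjusted p = 0.704). The small subunits RFC3, RFC4 and RFC5 had log2 changes of -0.15 ± 0.15, -0.11 ± 0.06 and -0.12 ± 0.09 in TNF against control. In TNFSG against SG the changes were -0.14 ± 0.08 for RFC1, -0.08 ± 0.15 for RFC3, -0.04 ± 0.06 for RFC4 and -0.12 ± 0.09 for RFC5. All 8 values were below 0, under both scalings tried as well, and none was called under any alternative. PCNA, the clamp that the complex loads, had 213, 261 and 234 FPKM in TNF against 207, 239 and 227 FPKM in control, a log2 change of 0.07 ± 0.10 (limma adjusted p = 0.882), and 0.10 ± 0.10 in TNFSG against SG. The difference between RFC2 and its partners was not tested.

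SLBP binds the stem-loop at the end of replication-dependent histone mRNAs and is made as cells enter S phase. It had 53.9, 60.7 and 55.5 FPKM in TNFSG against 71.3, 69.7 and 75.4 FPKM in SG. In TNF it had 58.4, 66.8 and 64.2 FPKM, against 72.9, 81.3 and 79.7 FPKM in control. Both sets of TNF-treated libraries lay wholly below their counterparts, yet neither difference passed alone. The log2 change was -0.34 ± 0.08 in TNFSG against SG (limma adjusted p = 0.0628) and -0.30 ± 0.08 in TNF against control (limma adjusted p = 0.110). The first was called at a filter of 5 FPKM (limma adjusted p = 0.0349) and with quantile normalization (limma adjusted p = 0.0460). MCM4, a subunit of the replicative helicase, had 82.4, 84.0 and 76.2 FPKM in TNF, against 94.6, 91.0 and 88.6 FPKM in control. In TNFSG it had 88.0, 93.9 and 93.3 FPKM, against 103, 103 and 102 FPKM in SG. The MCM4 groups did not overlap in either comparison, with log2 changes of -0.18 ± 0.06 (limma adjusted p = 0.240) and -0.16 ± 0.06 (limma adjusted p = 0.284).

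A contrast that averaged the TNF effect over both transfections, chosen after these values were seen, uses all 12 libraries. It called 3 of the 47 members, where 4.38% of all tested loci were called (2.84% higher and 1.55% lower), and 7.94% of the 11013 loci at least as abundant as the lowest member: RFC2 was higher with TNF by 0.36 ± 0.04 (limma adjusted p = 0.000859), and SLBP fell by 0.32 ± 0.05 (limma adjusted p = 0.00826) and MCM4 fell by 0.17 ± 0.04 (limma adjusted p = 0.0484). The RFC2 and SLBP calls held in 21 of 21 alternatives, with adjusted p up to 0.0120 and 0.0391. MCM4 held in 5 of 21 and was lost in all 12 refits without 1 library, at limma adjusted p-values between 0.0580 and 0.115, and without both first replicates, at -0.16 (limma adjusted p = 0.0866). At 6 hours the other 44 members had no call, 6 of 47 had an unadjusted p under 0.05 (12.8%, against 15.9% of all loci), and all 47 averaged TNF effects had a 95% interval within 0.5 log2 units of 0.

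Under TNF the members' median was close to that of all loci. The median log2 change was -0.03 over members and -0.02 over all tested loci in TNF against control, and -0.03 over each in TNFSG against SG. In TNF against control, 6 members (12.8%) had an unadjusted p under 0.05, against 11.2% of all loci, and in TNFSG against SG 3 (6.38%), against 11.4%. Groups that did not overlap were counted too. In TNF against control 5 members lay wholly higher (10.6%, where 7.59% of all loci did) and 3 wholly lower (6.38%, where 8% did). Besides RFC2, the higher ones were CCNE2, CDT1, TK1 and UHRF1, a protein that reads hemimethylated DNA, and the lower ones SLBP, MCM4 and ORC1. In TNFSG against SG, RFC2 alone lay wholly higher (2.13%, where 8.13% of all loci did), and SLBP, MCM4 and CCNE1 wholly lower (6.38%, where 10% did).

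The levels of 3 of these follow. CCNE2, a cyclin E, had 11.5, 8.50 and 8.89 FPKM in TNF against 7.66, 6.23 and 7.72 FPKM in control, with TNF replicate 1 the highest, and a log2 change of 0.37 ± 0.15 (limma adjusted p = 0.367). CDT1, the licensing factor, had 96.3, 82.9 and 87.8 FPKM in TNF against 80.1, 74.5 and 81.8 FPKM in control, a log2 change of 0.17 ± 0.07 (limma adjusted p = 0.379). TK1, thymidine kinase, had 61.3, 59.7 and 61.2 FPKM in TNF against 53.4, 51.9 and 58.0 FPKM in control, a log2 change of 0.16 ± 0.07 (limma adjusted p = 0.399). None of these passed, and in TNFSG against SG the 3 log2 changes were 0.16 for CCNE2, -0.03 for CDT1 and 0.02 for TK1.

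By role, the smallest limma adjusted p among the members that follow was 0.379 in TNF against control and 0.453 in TNFSG against SG. The 5 licensing factors had log2 changes of -0.17 to 0.17 in TNF against control, GMNN lowest and CDT1 highest, and -0.19 to -0.03 in TNFSG against SG, ORC6 lowest. GMNN had 102.5, 120.5 and 110.1 FPKM in TNF against 119.3, 130.4 and 123.8 FPKM in control, which overlapped. The 6 helicase activators had changes of -0.06 to 0.01 in TNF against control and -0.18 to 0.04 in TNFSG against SG. The 8 polymerase and primase genes had -0.19 to 0.29, with POLE2, the second subunit of polymerase epsilon, lowest and POLD3 highest, and -0.13 to 0.05 in TNFSG against SG. POLD3, an accessory subunit of polymerase delta, had 18.4, 28.9 and 25.1 FPKM in TNF against 18.7, 19.9 and 19.1 FPKM in control, with TNF replicate 1 below every control library and the other TNF libraries above them. The RPA subunits had -0.09 to -0.05 in TNF against control and -0.05 to 0.03 in TNFSG against SG. Apart from TK1, the nucleotide supply genes TYMS, RRM1, RRM2 and DUT had changes of at most 0.06 in size in either comparison. Under TNF no member of these roles was called.

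**Figure D3:**
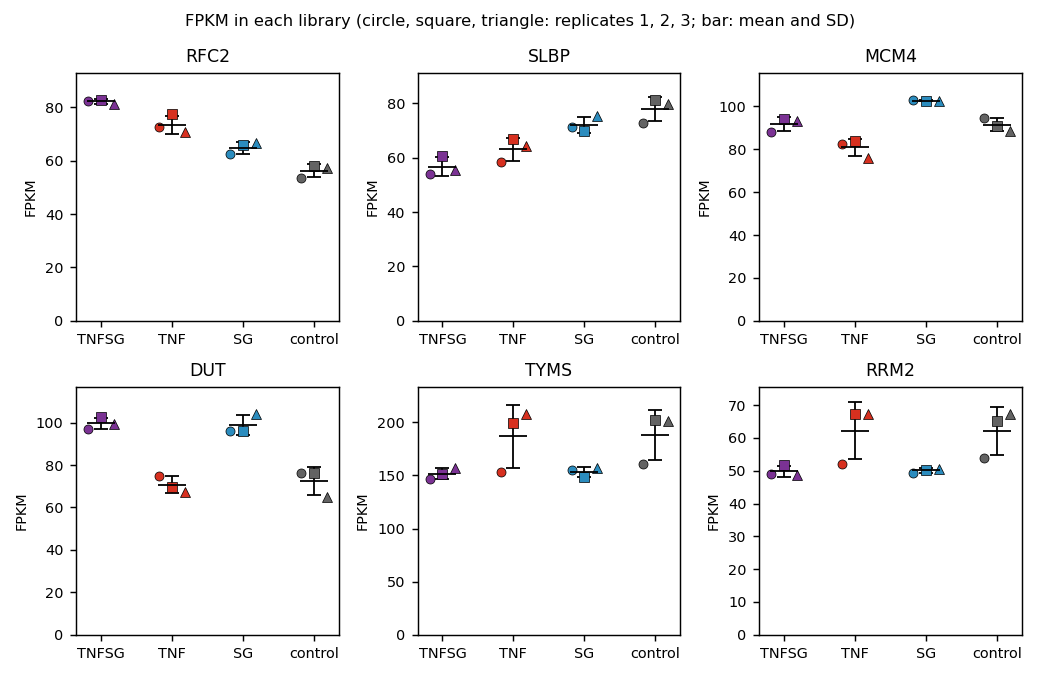
FPKM of 6 genes in every library; circles, squares and triangles are replicates 1, 2 and 3, and the bar is the mean with its SD (n = 3). RFC2 is higher and SLBP lower in TNFSG than in SG and in TNF than in control, DUT is higher in TNFSG and SG than in TNF and control, and TYMS and RRM2 are spread in TNF and control, where replicate 1 is low.

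The lncRNA reagents called no member in either TNF state at an adjusted p under 0.05 with limma. In SG against control 0 of 47 members were called, where 0.17% of all tested loci were, and 9 had an unadjusted p under 0.05 (19.1%, against 9.86% of all loci). In TNFSG against TNF 0 were called, where 0.128% of all loci were, and 10 had an unadjusted p under 0.05 (21.3%, against 9.11%). The member of lowest p in both was DUT, the dUTPase that keeps uracil out of DNA and supplies dUMP for thymidylate. DUT had 96.9, 102 and 99.4 FPKM in TNFSG and 75.1, 69.7 and 67.3 FPKM in TNF. Without TNF it had 96.2, 95.8 and 104 FPKM in SG, against 76.4, 76.1 and 64.8 FPKM in control. All 6 libraries with the lncRNA reagents lay above all 6 with the control reagents. The log2 change was 0.49 ± 0.08 in TNFSG against TNF (limma adjusted p = 0.0633) and 0.44 ± 0.08 in SG against control (limma adjusted p = 0.0864). At a filter of 5 FPKM, which leaves fewer loci to adjust over, they were called at limma adjusted p-values of 0.0271 and 0.0397.

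Averaged over both TNF states, a contrast also chosen after the values were seen, DUT was higher with the lncRNA reagents by 0.47 ± 0.05 (limma adjusted p = 0.00510). It was the only member of the 47 called, where 1.11% of all tested loci were (0.593% higher), and 2.63% of the loci at least as abundant as the lowest member. The DUT call held in 21 of 21 alternatives, with log2 changes of 0.389 to 0.509 and adjusted p up to 0.0310. In this contrast 20 members (42.6%) had an unadjusted p under 0.05, against 14.6% of all tested loci, with both directions among them. The median standard error there was 0.067 for members and 0.219 for all tested loci. That share was not worked out for loci as abundant as the members. Next in order of p were RFC2 at 0.18 ± 0.04 (limma adjusted p = 0.0741), RPA3 at 0.24 ± 0.05 (limma adjusted p = 0.0753) and MCM4 at 0.17 ± 0.04 (limma adjusted p = 0.0829).

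TYMS and RRM2, which with DUT feed the thymidine and deoxyribonucleotide pools, lay on the other side. TYMS had 147, 152 and 157 FPKM in TNFSG against 153, 199.7 and 208 FPKM in TNF, and 155, 148 and 157 FPKM in SG against 161, 202 and 202 FPKM in control. RRM2 had 49.1, 51.8 and 48.6 FPKM in TNFSG against 52.2, 67.2 and 67.4 FPKM in TNF. In SG it had 49.4, 50.3 and 50.6 FPKM, against 53.8, 65.2 and 67.3 FPKM in control. For RRM2 neither pair of groups overlapped, and for TYMS only TNFSG and TNF did. The lncRNA reagent libraries were close together, whereas TNF replicate 1 and control replicate 1 were far below their partners and near the lncRNA reagent level. With all libraries the averaged log2 change was -0.30 ± 0.08 for RRM2 (limma adjusted p = 0.114) and -0.29 ± 0.09 for TYMS (limma adjusted p = 0.175), so neither was called. Without those 2 first replicates, an alternative chosen after the values were seen, the averaged change was -0.41 for RRM2 (limma adjusted p = 0.00467) and -0.41 for TYMS (limma adjusted p = 0.00630), and in SG against control RRM2 was also called, at -0.40 (limma adjusted p = 0.0412). Without TNF replicate 1 alone, RRM2 was called in the average at -0.36 (limma adjusted p = 0.0385). With all libraries and quantile normalization, RRM2 was called in the average at -0.37 (limma adjusted p = 0.0471). TYMS was called in the average only without both first replicates, among the alternatives run.

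Several fork genes lay higher with the lncRNA reagents, without a call in the fit of all libraries at the main settings. RPA3, the smallest subunit of the single-strand binding protein, had 29.5, 30.3 and 33.5 FPKM in TNFSG against 25.2, 24.7 and 25.8 FPKM in TNF, and 28.9, 29.7 and 32.9 FPKM in SG against 25.1, 27.8 and 27.5 FPKM in control. Neither pair overlapped, at log2 changes of 0.29 ± 0.07 (limma adjusted p = 0.259) and 0.18 ± 0.07 (limma adjusted p = 0.474). At a filter of 5 FPKM, where fewer loci are tested, the average over both TNF states was called for RPA3 (limma adjusted p = 0.0322), RFC2 (limma adjusted p = 0.0316) and MCM4 (limma adjusted p = 0.0361). POLD1, the catalytic subunit of polymerase delta on a locus shared with SPIB, had 72.0, 66.5 and 70.3 FPKM in SG against 60.4, 51.6 and 57.8 FPKM in control, a log2 change of 0.30 ± 0.10 (limma adjusted p = 0.349). In TNFSG it had 70.2, 70.6 and 74.1 FPKM against 72.1, 57.2 and 56.5 FPKM in TNF, where TNF replicate 1 overlapped. Without the first replicates of TNF and control, POLD1 was called in the average at 0.34 (limma adjusted p = 0.0184), and without TNF replicate 1 alone at 0.31 (limma adjusted p = 0.0329).

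CDC45, the helicase activator, had 193, 215 and 214 FPKM in TNFSG against 159, 186 and 201 FPKM in TNF, a log2 change of 0.19 ± 0.11 (limma adjusted p = 0.670). In SG it had 201, 209 and 224 FPKM against 155, 187 and 199 FPKM in control, where the groups did not overlap, a log2 change of 0.23 ± 0.11 (limma adjusted p = 0.553). RRM1, the large subunit of ribonucleotide reductase, did not share the RRM2 values, at log2 changes of 0.09 ± 0.05 in TNFSG against TNF and 0.04 ± 0.05 in SG against control. MCM6, a helicase subunit, had 93.2, 106 and 109 FPKM in TNFSG against 74.9, 96.4 and 95.6 FPKM in TNF, the widest MCM change of that comparison at 0.21 ± 0.12 (limma adjusted p = 0.667), and TNF replicate 1 was again the lowest library.

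By role, the 5 MCM subunits had log2 changes of 0.11 to 0.24 in SG against control and 0.11 to 0.21 in TNFSG against TNF, all above 0. The 3 RPA subunits had 0.12 to 0.18 and 0.16 to 0.29. With median-ratio scaling between libraries these stayed above 0, at 0.02 to 0.16 and 0.04 to 0.14 for MCM and 0.04 to 0.10 and 0.09 to 0.22 for RPA. The 4 G1/S control genes, CCNE1, CCNE2, E2F1 and SLBP, had changes of -0.32 to -0.10 in TNFSG against TNF and -0.11 to -0.03 in SG against control, below 0 under both scalings tried as well. E2F1, the transcription factor of this group, had 19.2, 25.1 and 23.1 FPKM in TNFSG against 26.6, 29.2 and 28.7 FPKM in TNF, a log2 change of -0.32 ± 0.13 (limma adjusted p = 0.507). No role had a called member in these 2 comparisons.

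Counted over all members, 33 of 47 changes in SG against control were above 0, with a median of 0.06, and over all tested loci the median was 0.09. After median-ratio scaling 23 of 47 were above 0, so the direction of the whole set depends on the scaling. In SG against control 12 members lay wholly above control (25.5%, where 10.3% of all loci did) and 3 wholly below (6.38%, where 4.62% did). In TNFSG against TNF the counts were 7 wholly above (14.9%, where 10% did) and 6 wholly below (12.8%, where 4.73% did). The members' median standard error was 0.095 in each comparison of 2 groups and that of all tested loci 0.31. The part of this in the counts was not tested. Of the 47 members, 37 in SG against control and 38 in TNFSG against TNF had a 95% interval within 0.5 log2 units of 0.

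**Figure D4:**
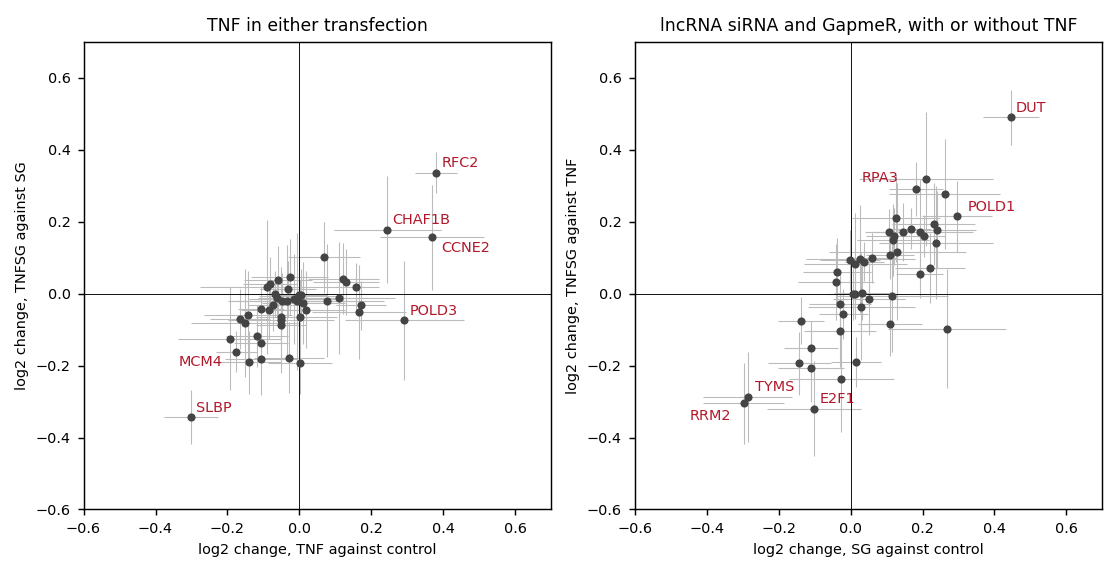
Log2 change of each of the 47 genes with its standard error, for TNF in the 2 transfections (left) and for the lncRNA reagents in the 2 TNF states (right); the axes of a panel share no library. RFC2 and SLBP lie at opposite ends on the left and DUT apart at the upper right, with TYMS and RRM2 at the lower left of the right panel.

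The 2 TNF comparisons share no library, and neither do the 2 comparisons of the lncRNA reagents. Across the 47 members, the changes in TNFSG against SG and in TNF against control had a Spearman rho of 0.555 and the same sign in 31. For TNFSG against TNF and SG against control, rho was 0.78 with the same sign in 36. Genes are not independent replicates, so these are descriptions. Whether the TNF effect depended on the lncRNA reagents was tested by the interaction, (TNFSG minus SG) minus (TNF minus control). No member was called with limma, where 0.00913% of all loci were, and 0 of 47 had an unadjusted p under 0.05, against 3.75% of all loci. The lowest p was that of CDT1, at -0.20 ± 0.10 (limma adjusted p = 1.0): its TNF change was 0.17 with the control reagents and -0.03 with the lncRNA reagents. The interaction was estimated less precisely, with 36 of 47 intervals within 0.5 log2 units of 0.

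**Figure D5:**
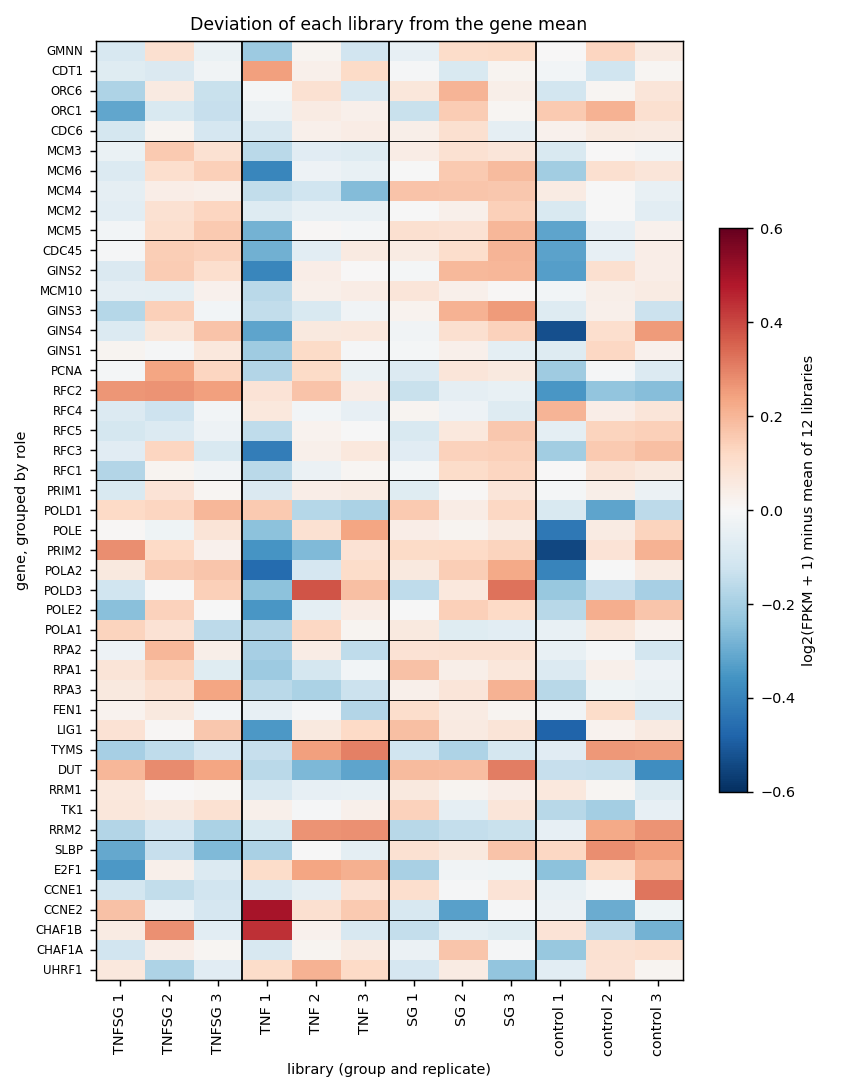
Deviation of each library from the gene's mean over the 12 libraries on the log2(FPKM + 1) scale, from blue (below) to red (above), with genes in rows grouped by role and libraries in columns. TNF 1 and control 1 are blue in most rows of the helicase, fork and polymerase groups; the RFC2 row is red in TNFSG, and the DUT row is red in TNFSG and SG and blue in TNF and control.

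Members did not follow one common course over the 12 libraries. The median Pearson r over all 1081 pairs of members was 0.249. TYMS and RRM2 were the closest of the genes looked at, at r = 0.975, and E2F1 came next for each, at 0.734 with TYMS and 0.772 with RRM2. The genes most like RFC2 were TK1 (r = 0.65) and PCNA (r = 0.646). SLBP was most like ORC1 (r = 0.772), and DUT most like RPA3 (r = 0.837) and POLD1 (r = 0.773). These values are over the same 12 libraries, which share the low first replicates.

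Promoter sequence was set beside these values because many of the members are known E2F targets. RefSeq windows of GRCh38.p14, 250 bases before to 50 bases after each transcription start, were found for 40 of the 47 members. The E2F-type motif TTTNNCGC was looked for on both strands, and 23 of the 40 genes (57.5%) held it, against 10.8% of 15843 protein-coding genes. CCAAT, the letters bound by NF-Y, was also in 23 of the 40 (57.5%), on either strand, against 42.1% of protein-coding genes. The NF-kB consensus, the motif of a factor that TNF activates, was in 3 (7.5%), CHAF1B, POLD1 and RRM2, against 8.4%. Members' windows had a median GC content of 66.0%, against 62.3% for protein-coding genes, and the motif shares were not adjusted for it. The windows of the genes that were called, except MCM4, and of the pair TYMS and RRM2 are shown in lower case, with matches to TTTNNCGC or CCAAT on either strand in capitals. RFC2 is at chr7:74254350-74254649 (minus strand), SLBP at chr4:1712270-1712569 (minus), DUT at chr15:48331947-48332246 (plus), TYMS at chr18:657403-657702 (plus) and RRM2 at chr2:10122489-10122788 (plus). The DUT window, 1 of 4 for that gene, was the first listed that held TTTNNCGC. The RRM2 window, 1 of 2, was the first listed, since neither held TTTNNCGC.
RFC2: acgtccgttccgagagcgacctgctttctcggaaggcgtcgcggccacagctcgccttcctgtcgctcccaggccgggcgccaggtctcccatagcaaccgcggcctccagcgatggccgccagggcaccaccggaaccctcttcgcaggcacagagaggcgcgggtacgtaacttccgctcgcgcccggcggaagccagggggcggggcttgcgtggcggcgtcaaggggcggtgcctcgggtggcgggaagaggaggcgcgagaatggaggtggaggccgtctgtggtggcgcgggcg
SLBP: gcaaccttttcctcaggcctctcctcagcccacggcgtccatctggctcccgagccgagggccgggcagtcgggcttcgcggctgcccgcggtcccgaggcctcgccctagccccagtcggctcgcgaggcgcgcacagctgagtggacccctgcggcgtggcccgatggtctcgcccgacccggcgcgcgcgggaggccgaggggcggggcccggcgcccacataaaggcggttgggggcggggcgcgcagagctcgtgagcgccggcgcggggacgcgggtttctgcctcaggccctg
DUT: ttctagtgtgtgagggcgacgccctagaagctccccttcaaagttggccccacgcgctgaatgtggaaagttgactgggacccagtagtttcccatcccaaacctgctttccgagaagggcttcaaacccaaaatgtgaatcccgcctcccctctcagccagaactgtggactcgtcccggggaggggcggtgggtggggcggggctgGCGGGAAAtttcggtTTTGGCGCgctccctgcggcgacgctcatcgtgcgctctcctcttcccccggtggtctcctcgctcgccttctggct
TYMS: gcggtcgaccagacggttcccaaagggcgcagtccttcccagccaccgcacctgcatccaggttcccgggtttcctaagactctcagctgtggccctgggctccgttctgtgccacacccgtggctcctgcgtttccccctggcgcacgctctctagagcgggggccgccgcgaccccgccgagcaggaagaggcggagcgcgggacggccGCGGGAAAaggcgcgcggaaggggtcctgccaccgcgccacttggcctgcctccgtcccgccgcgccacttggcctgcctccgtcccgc
RRM2: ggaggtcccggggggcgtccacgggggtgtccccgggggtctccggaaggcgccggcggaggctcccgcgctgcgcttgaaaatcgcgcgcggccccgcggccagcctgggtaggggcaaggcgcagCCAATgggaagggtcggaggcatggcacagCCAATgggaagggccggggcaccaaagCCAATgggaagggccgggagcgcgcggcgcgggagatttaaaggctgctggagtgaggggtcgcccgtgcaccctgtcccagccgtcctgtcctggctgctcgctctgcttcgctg
The RFC2 and SLBP windows, of the 2 genes with the firmest TNF calls, hold no match to these 2 motifs, nor to the NF-kB consensus. DUT shows 2 E2F-type matches close to its start, TYMS 1, and RRM2 3 CCAAT boxes. No match says only that these letters are not in the window, and a match is not a bound site. In GENCODE 29 on the same build, RFC2 spans 74231499 to 74254458 on chromosome 7, SLBP 1692800 to 1712555 on chromosome 4 and DUT 48331011 to 48343373 on chromosome 15, each a protein-coding gene.

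Other genes of the same processes were read from lists beside the set. Of 32 further replication factors none rose and 2 fell in TNF against control. Of all tested loci 1.45% were called in that comparison, and 2.82% of the loci at least as abundant as the lowest member. ORC4, an origin recognition subunit, had 30.7, 33.6 and 32.0 FPKM in TNF against 46.8, 39.1 and 39.9 FPKM in control, and fell by 0.37 ± 0.07 (limma adjusted p = 0.0424). DBF4, which activates the kinase that fires origins, had 22.2, 25.1 and 24.6 FPKM in TNF against 32.5, 31.1 and 31.2 FPKM in control, and fell by 0.39 ± 0.07 (limma adjusted p = 0.0326). Neither was called in TNFSG against SG, and the interaction called none of the 32. In the average over both transfections ORC4 fell by 0.27 (limma adjusted p = 0.0189) and DBF4 by 0.36 (limma adjusted p = 0.00343). The members grouped here as licensing factors, ORC1, ORC6, CDC6, CDT1 and GMNN, had no call in any comparison. MCM4, of the helicase that licensing loads, was called in the average over both transfections, as given above.

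Among 29 further G1/S regulators measured, CCND2, a cyclin D, rose with TNF in both transfections. It was the only one of them called in TNF against control, where 1.45% of all tested loci were. The same held in TNFSG against SG, where 1.64% were. It had 30.5, 32.7 and 30.3 FPKM in TNFSG against 13.7, 12.9 and 12.3 FPKM in SG, a rise of 1.20 ± 0.10 (limma adjusted p = 0.000195). In TNF it had 30.6, 38.4 and 38.4 FPKM against 14.7, 13.6 and 13.1 FPKM in control, a rise of 1.31 ± 0.10 (limma adjusted p = 0.000109). The cyclin E genes of the set had log2 changes of -0.11 for CCNE1 and 0.37 for CCNE2 in TNF against control, without a call. E2F3, an activating E2F, had 27.7, 29.7 and 25.8 FPKM in SG against 40.4, 45.2 and 42.0 FPKM in control, and fell by 0.60 ± 0.09 (limma adjusted p = 0.0489). In TNFSG it averaged 31.5 FPKM against 46.5 FPKM in TNF, without a call, and in the average over both TNF states it fell by 0.57 (limma adjusted p = 0.00416). Of all tested loci 0.17% were called in SG against control and 1.11% in the average over both TNF states. The TNF average, over both transfections, also called the cyclin D genes CCND1 (1.05, limma adjusted p = 0.0217) and CCND3 (-0.31, limma adjusted p = 0.0124) and the repressive E2F gene E2F5 (-0.47, limma adjusted p = 0.0121). The TNF average called 4.38% of all tested loci, and 7.94% of the loci at least as abundant as the lowest member. None of 12 further nucleotide supply genes, 11 chromatin genes or 18 S phase checkpoint genes was called in the 4 comparisons of 2 groups. In the TNF average the locus of the checkpoint kinase gene CHEK1, which is shared with STT3A, rose by 0.34 (limma adjusted p = 0.0219). RAD1, of the checkpoint clamp, fell by 0.31 (limma adjusted p = 0.0165). In the average for the lncRNA reagents the locus of DCK, a salvage kinase for deoxynucleosides, fell by 0.40 (limma adjusted p = 0.0475), and it is shared with MOB1B. ASF1B, a histone chaperone, rose by 0.33 (limma adjusted p = 0.0293). The values of the shared CHEK1 and DCK loci cannot be split between the genes named.

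Genes of G2 and mitosis, 42 of them, were compared as the neighbouring part of the cycle. In TNFSG against TNF the list's median log2 change was -0.11, where the replication genes' was 0.07, and in SG against control it was -0.14, where theirs was 0.06. Over all tested loci the medians were 0.08 in TNFSG against TNF and 0.09 in SG against control. Over loci at least as abundant as the lowest member they were 0.04 and 0.05. One gene of the 42 was called in each comparison: ANLN, the cytokinesis scaffold anillin, averaged 28.2 FPKM in TNFSG against 43.4 FPKM in TNF (limma adjusted p = 0.0353) and 26.1 FPKM in SG against 43.4 FPKM in control (limma adjusted p = 0.0182). In the average over both TNF states ANLN fell by 0.66 (limma adjusted p = 0.00182), the mitotic cyclin gene CCNB2 by 0.30 (limma adjusted p = 0.0148) and the kinetochore gene NUF2 by 0.37 (limma adjusted p = 0.0165). Of all tested loci 0.128% were called in TNFSG against TNF, 0.17% in SG against control and 1.11% in that average. Among loci at least as abundant as the lowest member the shares were 0.281%, 0.454% and 2.63%. The difference between the 2 lists was not tested. Under TNF both lists lay near each other, with medians of -0.08 for G2 and mitosis and -0.03 for replication in TNFSG against SG, and -0.07 and -0.03 in TNF against control.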

How the data were processed

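The input was 1 table of FPKM values per locus, as the authors deposited it, for 12 libraries of K562 cells (single reads of 50 bases) in 4 groups of 3. Its columns were matched to libraries by their titles. Per the submitters' processing notes, the tools were Cufflinks, TopHat2 2.0.14 and Bowtie2 2.2.9, and the build was hg38. Neither a Cufflinks version nor an annotation release is given in the sources used here. The table holds no counts, so depth is unknown and no counting interval can be given. Reads of overlapping genes and of near-identical copies cannot be told apart in such values.

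Of the listed symbols, 15 lay on more than 1 locus. Members and lists were chosen with earlier results of these data known. Values were tested as log2(FPKM + 1), which understates changes of low genes. A locus was tested if 3 or more libraries reached 1 FPKM, which left 32866 loci and all 47 members, each with a mean well above that. The model had 1 mean for each of the 4 groups and was fitted with limma 3.58.1 in R 4.3.3 (eBayes, trend). P-values are two-sided and were adjusted by Benjamini and Hochberg's method over the whole table, with a threshold of 0.05. The code was tested on simulated data. The text names each member past the threshold, up to 8 of lowest p in a comparison as values, the highest and lowest of role groups, and called genes of the other lists. The genes lowest in first replicates were named after their values were seen. The averaged contrasts and the fit without control replicate 1 and TNF replicate 1 were also added after the values were seen. Alternatives changed the pseudocount, filter, scaling, trend, groups fitted, replicate block and libraries kept. Motifs were searched in RefSeq promoter windows with Python 3.11.15.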

Additional observations from a re-analysis of the deposited data

How the results depend on the processing

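No member's call changed direction. Of all member values under the alternatives, 5876 kept their side of the threshold, most of them never called, 19 gained a call and 27 lost one. For TNF against control, 0 members were called without a trend, 0 with only the groups compared (201 loci in all) and 0 without control replicate 1 and TNF replicate 1 (301 loci). For TNFSG against SG, 2 members were called at a filter of 5 FPKM, 2 with quantile normalization, 0 without a trend and 0 with only the groups compared (323 loci). For SG against control, 1 member and 115 loci were called at a filter of 5 FPKM, 16 loci without a trend, 12 with only the groups compared and 1 member (69 loci) without the 2 first replicates; the members' median was -0.027 with median-ratio scaling. For TNFSG against TNF, 1 member and 97 loci were called at 5 FPKM, 78 loci with median-ratio scaling, 18 without a trend, 2 with only the groups compared and 21 without the 2 first replicates, where the median was -0.008; with quantile normalization it was -0.009. For the interaction, 12 loci were called at a pseudocount of 0.1 and 7 without the 2 first replicates. For SG averaged over both TNF states, 4 members and 701 loci were called at 5 FPKM, 2 members with quantile normalization, 158 loci without a trend, and 4 members and 677 loci without the 2 first replicates (median -0.012); the median was -0.015 with median-ratio scaling. The filter of 5 FPKM tests fewer loci, and otherwise the cause was not tested. The averaged contrasts and the fit without the 2 first replicates were chosen after seeing the data.

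In the library titles, same-numbered libraries of the 4 groups carry a common letter, A, B or C. The design text states no pairing by replicate number. In their deviations from group means, same-numbered libraries correlated at -0.012 to 0.133, with a median of 0.021, against a median of -0.018 for the other pairs. Of 18 same-numbered pairs 1 was over 0.1, and 6 of 12 libraries correlated best with one of their own number. In every group the first replicate was lowest for most members. Whether same-numbered libraries were handled together was not tested. With the replicate block 2 members (831 loci) were called in TNF against control, 2 (843 loci) in TNFSG against SG and 4 (938 loci) in SG averaged over both TNF states; SLBP gained its calls there, at limma adjusted p-values of 0.0254 in TNFSG against SG and 0.0420 in TNF against control, and in SG averaged RPA3 (0.0276), RFC2 (0.0383) and RRM2 (0.0481) gained theirs. Leaving out 1 library at a time gave 1 to 1 members and 294 to 431 loci in TNF against control, 0 to 0 and 299 to 368 in TNFSG against SG, 0 to 0 and 10 to 23 in SG against control, 0 to 0 and 3 to 18 in TNFSG against TNF, and 0 to 0 and 1 to 6 in the interaction. It gave 2 to 2 members and 985 to 1377 loci for TNF averaged over both transfections and 1 to 3 members and 134 to 363 loci for SG averaged, with 3 members only without TNF replicate 1. The members' medians then ran from -0.082 to 0.012 in TNF against control, -0.045 to -0.010 in TNFSG against SG, 0.027 to 0.115 in SG against control, -0.008 to 0.1 in TNFSG against TNF, -0.079 to 0.020 in the interaction, -0.058 to 0.002 for TNF averaged and 0.018 to 0.089 for SG averaged. Depth is unknown, so what it limits cannot be given.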
